A study of Mus musculus with 79 samples.

Results

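Quadriceps arrays of BXD mice and their 2 parental strains were ranked by the score of Ahr, the aryl hydrocarbon receptor, and the 14 chow diet (CD) arrays with the highest Ahr were compared with the 14 lowest across all other named genes. These 28 arrays were drawn from 42 CD arrays, in a series of 79 arrays that also holds 37 high fat diet (HFD) arrays. Because Ahr values chose the sets, Ahr itself is described and was not tested in them. As a check of direction, the 12 highest and the 12 lowest HFD arrays, ranked on their own Ahr, were compared in the same way.

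BXD strains are recombinant inbred lines from a cross of C57BL/6J (B6) and DBA/2J (D2), so each strain carries a fixed mosaic of the parental genomes. The parents were in the compared sets too, C57BL/6J in the low CD set and DBA/2J in the high CD and the low HFD set. Every array measured quadriceps RNA of 1 strain on 1 diet, pooled in equal amounts from about 5 males of 29 weeks, all fasted overnight from 6 pm to 9 am and perfused. CD mice ate Harlan 2018 and HFD mice Harlan 06414 from 8 weeks of age, with no transgene or drug in any group. RNA was extracted and arrays were run in 2 batches.

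The pool hides the spread between animals, and the strains of a set differ at many loci other than Ahr. Each strain was ranked on 1 array per diet. Differences between the sets therefore describe arrays that differ in Ahr score, noise of the array included. In whole muscle, fewer cells of a type and less RNA per cell cannot be told apart. Values are scores on a log-type scale, set so that the mean over an array is 8 with an SD of 2, and differences are in units of that score. Skeletal muscle was evident from its markers: the 11 fast fibre genes had a median score of 14.66, at the 99.9th percentile of named genes, whereas 10 lymphocyte genes lay at the 25.8th. No pair of arrays was identical, and correlations between arrays lay between 0.961 and 0.992.

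AHR is a basic helix-loop-helix PAS transcription factor that rests in the cytoplasm with the HSP90 chaperone and p23. When a ligand binds, such as a dioxin, a plant indole or the tryptophan product kynurenine, AHR enters the nucleus, pairs with ARNT and binds xenobiotic response elements. Cyp1a1, Cyp1b1, Tiparp and its own repressor Ahrr are the best known targets. B6 and D2 mice carry alleles that differ in ligand affinity, a property of the protein that transcript level does not measure.

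The core of the xenobiotic response element is GCGTG. Promoters of 3 genes are shown because Cyp1a1 is the reference target, Ahrr is the feedback repressor and Kdr was among the endothelial genes with the largest difference on CD. Each runs 5′ to 3′ from 250 bases before to 50 bases after the RefSeq start in GRCm38.p6. Capitals mark each GCGTG, found on either strand. The windows lie at chr9:57697363-57697662 (plus strand) for Cyp1a1, chr13:74292282-74292581 (minus strand) for Ahrr and chr5:75978406-75978705 (minus strand) for Kdr.
Cyp1a1: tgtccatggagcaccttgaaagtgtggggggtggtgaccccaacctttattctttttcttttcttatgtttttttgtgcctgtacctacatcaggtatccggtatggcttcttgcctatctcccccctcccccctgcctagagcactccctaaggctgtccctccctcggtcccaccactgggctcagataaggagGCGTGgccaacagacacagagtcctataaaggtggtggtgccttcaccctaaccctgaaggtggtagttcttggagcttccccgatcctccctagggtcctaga
Ahrr: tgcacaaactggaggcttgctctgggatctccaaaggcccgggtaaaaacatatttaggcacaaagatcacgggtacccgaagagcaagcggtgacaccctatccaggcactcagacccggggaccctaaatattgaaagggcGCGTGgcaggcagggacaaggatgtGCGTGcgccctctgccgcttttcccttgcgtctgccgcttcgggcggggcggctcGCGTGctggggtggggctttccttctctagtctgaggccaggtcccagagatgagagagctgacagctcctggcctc
Kdr: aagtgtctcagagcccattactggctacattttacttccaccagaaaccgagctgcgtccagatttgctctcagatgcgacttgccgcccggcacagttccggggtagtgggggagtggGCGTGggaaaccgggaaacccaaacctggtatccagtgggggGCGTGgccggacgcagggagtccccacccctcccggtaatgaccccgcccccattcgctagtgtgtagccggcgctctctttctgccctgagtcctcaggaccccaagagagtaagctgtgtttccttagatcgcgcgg
Cyp1a1 holds 1 copy in this window, Ahrr 3 and Kdr 2. A match describes letters only, and GCGTG stood in 32.4% of all 32851 promoters of this length. The longer form TNGCGTG, every copy of which contains GCGTG, stood in 5.07%.

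The high-Ahr CD set ran from 8.80 through a median of 8.92 to 9.03, and the low-Ahr set from 8.50 through 8.63 to 8.71. Mean Ahr was 8.92 ± 0.076 and 8.62 ± 0.063 (SD, n = 14 each), a difference of 0.301 units that the selection itself produced. BXD68 was the highest strain, and the parental strain C57BL/6J was the lowest of all 42. The edges were narrow: BXD60 in the high set and BXD98 outside it shared the score 8.80, and BXD50 in the low set at 8.71 was followed by BXD84 outside it at 8.72.

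Ahr varied among CD strains about as much as other genes did. Its SD over the 42 arrays was 0.137, the 50.5th percentile among 4597 genes of similar level, and its mean lay at the 64.8th percentile of levels. The high set held 8 arrays of batch 1 and 6 of batch 2, and the low set 7 of each. The 14 arrays between them were 3 of batch 1 and 11 of batch 2.

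**Figure D1:**
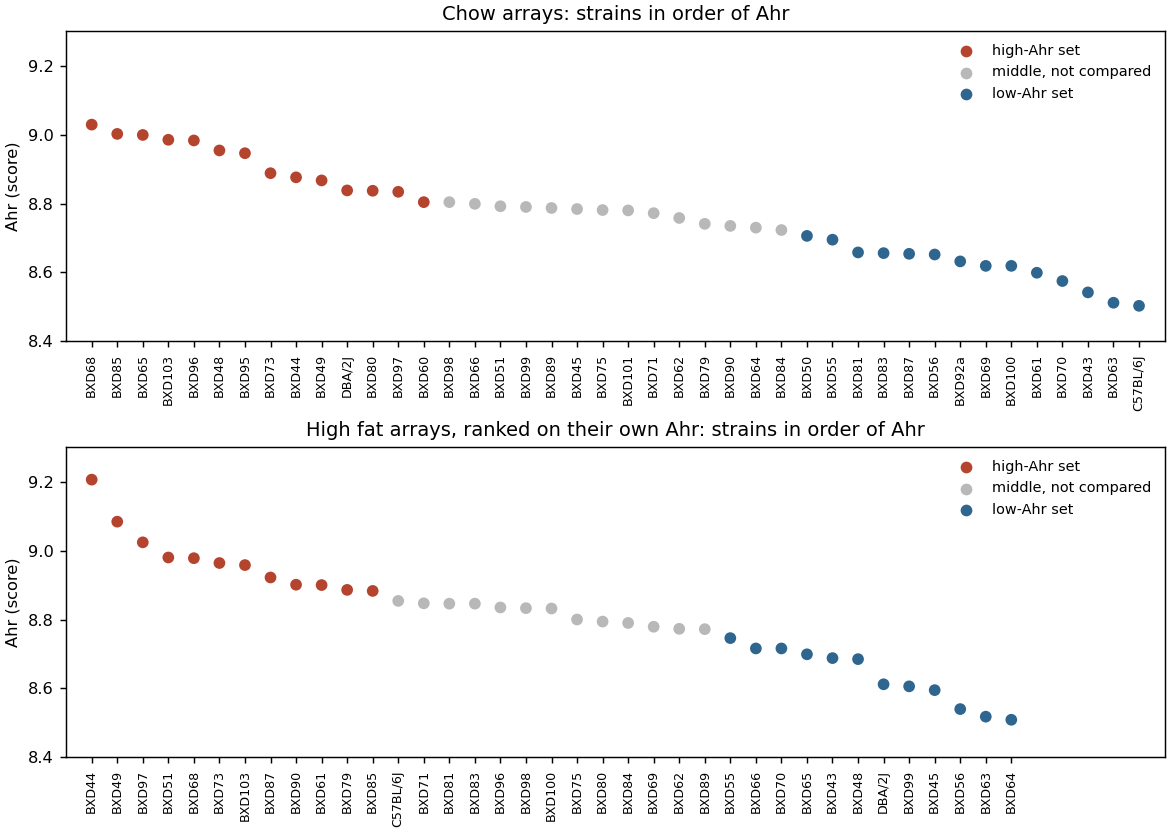
Ahr score (vertical axis) of each strain in order of Ahr on the 42 CD arrays (upper panel) and the 37 HFD arrays (lower panel), with 1 point per array of pooled mice. Red points are the high-Ahr sets, blue points the low-Ahr sets and grey points the arrays not compared; C57BL/6J is last of 42 on CD and 13th of 37 on HFD.

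On HFD, the high-Ahr set ran from 8.88 through 8.96 to 9.21 and the low-Ahr set from 8.51 through 8.65 to 8.75, a difference of 0.338 units between the means. Strains did not simply keep their place. Of the 12 strains of the high CD set that had an HFD array, 7 were in the high HFD set, 2 in the middle and 3 in the low HFD set, namely BXD48, BXD65 and DBA/2J. Of the 12 strains of the low CD set, 5 were in the low HFD set, 5 in the middle and 2, BXD61 and BXD87, in the high set. The parental strains changed places: DBA/2J ranked 11 of 42 on CD and 32 of 37 on HFD, whereas C57BL/6J ranked 42 on CD and 13 on HFD.

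The Ahr level of these strains on HFD was not used to choose them, so it could be tested. HFD arrays of the high CD strains ran from 8.61 through 8.92 to 9.21, and those of the low CD strains from 8.52 through 8.81 to 8.92. The ranges overlapped over most of their length. The means were 8.89 ± 0.18 and 8.77 ± 0.13 (SD, n = 12 each), a difference of 0.128 units (95% interval −0.004 to 0.259; two-sided permutation test with 100000 resamples, p = 0.056). Within batch 1 the difference was 0.035 (exact permutation test, p = 0.74), and within batch 2 it was 0.214 (exact permutation test, p = 0.0177). With the CD sets ranked again without the parental strains and refilled, it was 0.152 (n = 12 each, permutation test, p = 0.0153).

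No gene differed between high-Ahr and low-Ahr CD arrays after adjustment. With limma and batch as a term, 0 of 22334 named genes (0%) passed an adjusted p of 0.05, and the smallest adjusted p was 0.844. At an unadjusted p under 0.05, 580 genes (2.6%) were higher and 639 (2.86%) were lower in the high-Ahr arrays, 5.46% of genes in all. The median difference over all named genes was −0.009. Centring each array on its median gave 727 higher and 502 lower, so the balance between directions rests on the scaling. The genes below are named by rank, and none of them was called.

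Ppm1k, the mitochondrial phosphatase that activates branched-chain keto acid dehydrogenase, had the smallest p among the higher genes. It ran from 8.70 through 8.92 to 9.19 in high-Ahr CD arrays and from 8.46 through 8.69 to 8.90 in low-Ahr arrays. The sets overlapped, with 7 of the 14 high-Ahr arrays above every low-Ahr array. The difference was 0.273 units (SE 0.062, limma unadjusted p = 0.000137).

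Xaf1, an interferon-inducible partner of the apoptosis inhibitor XIAP, ran from 8.31 through 8.74 to 8.93 and from 7.75 through 8.31 to 8.75, a difference of 0.369 (SE 0.092). Atp1b1, a beta subunit of the sodium and potassium pump, ran from 11.98 through 12.53 to 12.83 and from 11.73 through 12.13 to 12.52, a difference of 0.368 (SE 0.1). In both genes 7 of the high-Ahr arrays lay above all low-Ahr arrays. Kcnma1 and Kcnmb1, the pore-forming and a regulatory subunit of the large-conductance calcium-activated potassium channel, differed by 0.179 (SE 0.05) and 0.224 (SE 0.058). The remaining genes of the 10 were Olfr516, Lmo7, Rusc2, 3110057O12Rik and Asb18.

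Among the lower genes, Pon1, the lipoprotein-borne paraoxonase, ran from 6.08 through 6.41 to 6.90 in high-Ahr and from 6.32 through 6.77 to 7.12 in low-Ahr CD arrays, a difference of −0.358 (SE 0.087). Its level is low on this array. Bach1, a repressor of heme oxygenase and other oxidative stress genes, ran from 9.83 through 9.92 to 10.28 and from 9.88 through 10.23 to 10.49, a difference of −0.255 (SE 0.067). In Bach1 the sets overlapped, and 3 of the 14 high-Ahr arrays lay above the median of the CD arrays. Olfr1029, Txndc17, Gm11201, Mpzl3, 4933421I07Rik, Olfr61, Tmem27 and 2210010C04Rik made up the 10.

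**Figure D2:**
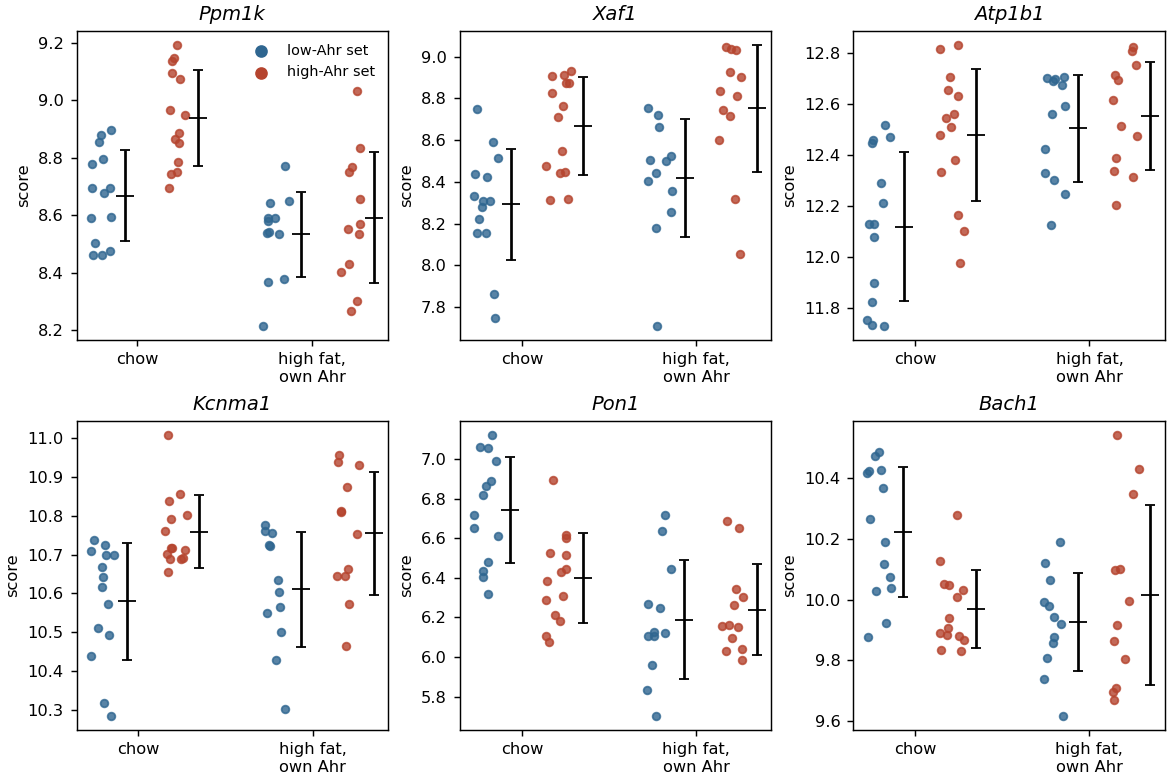
Scores (vertical axes) of 6 genes named by rank on CD, in low-Ahr (blue) and high-Ahr (red) arrays of each diet, with 1 point per array and bars for the mean and SD. On CD Ppm1k, Xaf1, Atp1b1 and Kcnma1 are higher and Pon1 and Bach1 lower in the high-Ahr arrays; on HFD the differences of Pon1 and Bach1 are 0.05 and 0.089.

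The HFD arrays ranked on their own Ahr gave the direction check. The 2 diets share strains but no arrays. Of the 1219 CD genes with an unadjusted p under 0.05, 904 (74.2%) had the same sign on HFD, beside 62.5% of all named genes. Of the 227 with p under 0.01, 179 (78.9%) did. Of the 20 genes named by rank on CD, 15 had the same sign on HFD. Xaf1, Kcnma1 and Gm11201 also had an unadjusted p under 0.05 there, beside 11.7% of all named genes. Olfr516, Olfr1029, Pon1, Bach1 and 2210010C04Rik had the opposite sign.

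On HFD, too, 0 of 22334 genes (0%) passed in limma, with a smallest adjusted p of 0.092. At an unadjusted p under 0.05, 1062 genes (4.76%) were higher and 1557 (6.97%) lower, 11.7% in all, and the median over all named genes was −0.02. Centring on the array median gave 1444 higher and 1047 lower. Olfactory receptor probesets, which read mostly background in muscle, had a mean of 6.03 ± 0.043 in high-Ahr and 6.07 ± 0.042 in low-Ahr HFD arrays (SD, n = 12 each), against 6.09 and 6.10 on CD. With that mean as a covariate, 1097 genes were under the unadjusted threshold on HFD, in place of 2619, and 1212 on CD. With this covariate the HFD median of the adipocyte list went from 0.123 to 0.053, that of the macrophage list from 0.088 to 0.021 and that of the interferon list from 0.063 to 0.021.

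When HFD arrays were instead grouped by the CD sets of their strains, 0 of 22334 genes (0%) passed and 302 (1.35%) were higher and 407 (1.82%) lower at an unadjusted p under 0.05. Of the 1219 CD genes, 781 (64.1%) had the same sign there, beside 52.1% of all named genes. The smallest limma adjusted p, 0.338, was that of Cxcl11, a chemokine.

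Across both diets, 80 genes were higher and 63 lower with Ahr at an unadjusted p under 0.05 on each, and 17 had opposite signs. These 160 genes were 13.1% of the CD genes under the threshold, near the 11.7% of all genes under it on HFD. The 10 with the smallest larger p were Gbp8, Eltd1, Gm11201, Il2rg, Olfr362, Mfn1, Xaf1, Mtss1, Prdx6 and Atp1b4. Gbp8, an interferon-induced guanylate-binding protein with close paralogs that its probes may also bind, differed by 0.283 (SE 0.093) on CD and 0.373 (SE 0.082) on HFD. Eltd1, an adhesion receptor of endothelial cells, differed by 0.235 (SE 0.079) and 0.253 (SE 0.067). Prdx6, an antioxidant peroxiredoxin, differed by 0.212 (SE 0.075) and 0.213 (SE 0.075). None of the 10 was called on either diet.

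The endothelial genes were higher with Ahr on both diets. All 12 had a higher mean in high-Ahr CD arrays, with a median difference of 0.154 units beside −0.009 over all named genes, and 6 of 12 had an unadjusted p under 0.05 beside the 2.6% of all genes. Kdr, a receptor for vascular endothelial growth factor, ran from 9.79 through 10.18 to 10.52 in high-Ahr and from 9.32 through 9.86 to 10.45 in low-Ahr CD arrays. The sets overlapped but were displaced, and the difference was 0.330 (SE 0.098, unadjusted p = 0.00229). Egfl7, Emcn, Flt1, Eng and Tie1 differed by 0.214, 0.206, 0.198, 0.194 and 0.158.

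On HFD arrays ranked on their own Ahr, all 12 endothelial genes were again higher, with a median of 0.131 and 6 under the unadjusted threshold, beside 4.76% of all genes. Flt1 and Tie1 were among the 6 on both diets, and Pecam1 and Esam had the smallest p on HFD. Pecam1, the junctional adhesion molecule CD31, ran from 10.06 through 10.32 to 10.59 in high-Ahr and from 9.71 through 10.06 to 10.27 in low-Ahr arrays, a difference of 0.280 (SE 0.067). Esam, another endothelial adhesion molecule, ran from 9.62 through 9.85 to 10.16 and from 9.40 through 9.52 to 9.92, a difference of 0.290 (SE 0.068). Kdr differed by 0.081 (SE 0.076) on HFD, and none of the 12 genes had an unadjusted p under 0.05 for the difference between diets, that of Kdr being 0.0656.

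Grouping HFD arrays by the CD sets of their strains gave 10 of 12 endothelial genes higher, with a median of 0.019 and none under the unadjusted threshold. Per array, the mean over the 12 genes ran from 9.71 through 10.09 to 10.25 in high-Ahr and from 9.55 through 9.94 to 10.18 in low-Ahr CD arrays. On HFD by own Ahr it ran from 10.03 through 10.17 to 10.36 and from 9.84 through 10.03 to 10.19. On HFD arrays by CD sets it ran from 9.84 through 10.11 to 10.36 and from 9.87 through 10.11 to 10.25, and the ranges covered each other. In that grouping the median difference was −0.003 with 6 of 12 genes higher when the CD sets were ranked again without BXD63 and refilled. It was −0.002 with only the BXD97 array left out and −0.046 within batch 1.

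The median endothelial difference on CD was 0.109 within batch 1 and 0.190 within batch 2, and lay between 0.128 and 0.180 when single arrays were left out. On HFD it was 0.079 within batch 1, 0.169 within batch 2 and 0.073 with the olfactory receptor covariate.

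**Figure D3:**
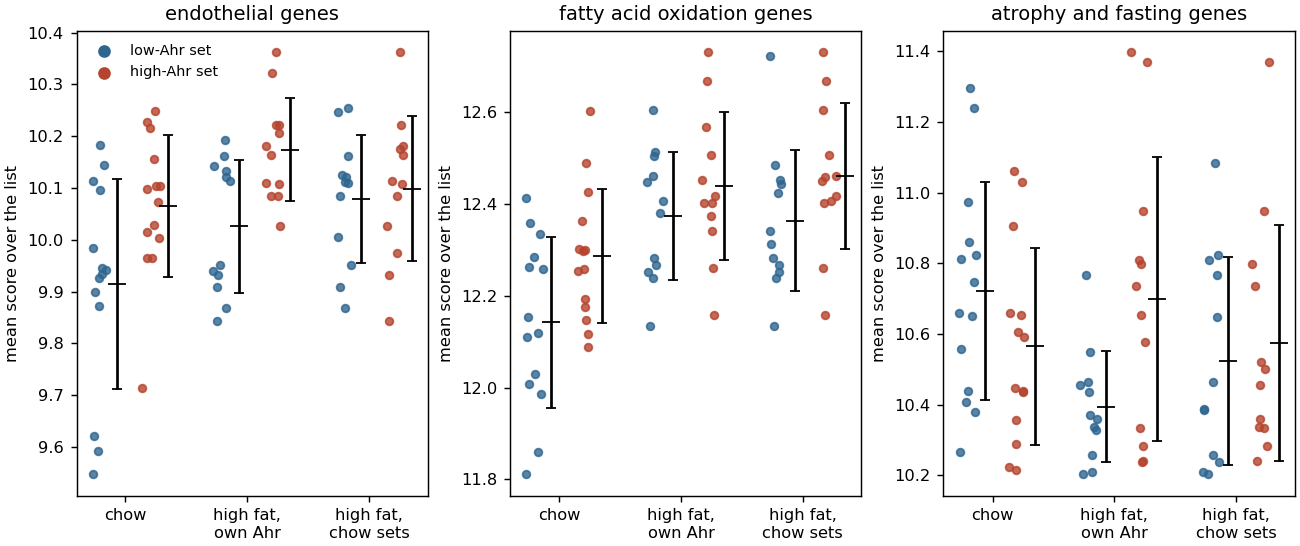
Mean score over the endothelial, fatty acid oxidation and atrophy and fasting genes (vertical axes) on low-Ahr (blue) and high-Ahr (red) arrays, for CD, for HFD ranked on its own Ahr and for HFD arrays of the CD sets. Each point is 1 array and bars give the mean and SD; the atrophy and fasting mean has medians of 10.52 and 10.70 in high-Ahr and low-Ahr CD arrays and of 10.70 and 10.36 on HFD.

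Some of the other cell type lists had medians that differed between diets or groupings, and others hardly moved. These changes were not tested. Of 14 adipocyte genes, 8 were higher on CD (median 0.046), 13 on HFD by own Ahr (0.123) and 12 by the CD sets (0.115), and at most 1 in each direction had an unadjusted p under 0.05 in any of them, which is near the shares of all genes given above. With Ahr as a continuous term 7 of 14 were higher on HFD (−0.044). Between the 18 highest and the 18 lowest HFD arrays by Ahr, 7 of 14 were higher (−0.021). On CD with fewer arrays per set 4 of 14 were higher (−0.083). Per array, the adipocyte mean ran from 10.16 through 10.98 to 11.60 in high-Ahr and from 10.38 through 10.86 to 11.20 in low-Ahr HFD arrays. The adipocyte median on HFD was 0.032 within batch 1 and 0.175 within batch 2, and its part in the endothelial difference there was not tested. Schwann cell genes had medians of 0.030 on CD and 0.101 on HFD, and tendon genes of 0.052 and 0.064, with 7 of 8 tendon genes higher on HFD. Fibroblast, red blood cell and lymphocyte genes had medians between −0.065 and −0.002 on both diets. The fibroblast median on CD turned with the batch, from −0.139 in batch 1 to 0.113 in batch 2, and 3 of 9 red blood cell genes were lower under the threshold on HFD, beside 6.97% of all genes.

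Of 11 slow fibre genes, 10 were higher on CD with a median of 0.222, but none had an unadjusted p under 0.05. Their mean per array ran from 8.89 to 10.74 in high-Ahr and from 8.81 to 10.82 in low-Ahr arrays. The median was 0.393 within batch 1 and 0.027 within batch 2 with 6 of 11 higher. With the sets ranked again and refilled, it was 0.110 without the parental strains and 0.139 without BXD63. Fast fibre genes had a median of −0.044, with 2 of 11 higher and 3 lower under the threshold, beside 2.6% and 2.86% of all genes. The 2 higher genes were Myh2 at 0.339 and Myh1 at 0.148. The 3 lower ones were Tnnc2 at −0.143, Tnni2 at −0.100 and Pvalb at −0.085. Of 11 macrophage genes, 10 were lower on CD (median −0.036) and 10 higher on HFD (median 0.088), none with an unadjusted p under 0.05 on either diet. These directions held in 1 batch each: CD arrays of batch 2 gave 9 of 11 higher (0.109), and HFD arrays of batch 1 gave 3 of 11 higher (−0.063).

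Members of the receptor complex and its targets went both ways on CD and on HFD by own Ahr. The 18 genes of the receptor complex had a median difference of −0.013 on CD, with 8 higher and 10 lower. The dimerization partner Arnt ran from 11.15 through 11.52 to 11.66 in high-Ahr and from 11.30 through 11.51 to 11.89 in low-Ahr CD arrays, a difference of −0.037 (SE 0.062). On HFD Arnt differed by 0.167 (SE 0.069, unadjusted p = 0.0233). The coactivator Ncoa3 was the only one of 18 under the threshold on CD, beside 2.6% of all genes, at 0.104 (SE 0.045). Arnt and Ncoa3, at 0.118 (SE 0.049), were the 2 under it on HFD, beside 4.76%. On CD 6 of 18 were higher within batch 1 (median −0.037) and 12 of 18 within batch 2 (0.026). The cytoplasmic chaperones Hsp90ab1 and Ptges3 (p23) differed by −0.033 and 0.037 on CD.

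The repressor Ahrr, whose promoter with 3 GCGTG copies is printed above, differed by −0.067 (95% interval −0.201 to 0.067) on CD. Of the 14 listed targets 12 were on the array, and their median was −0.005 on CD, with 5 higher, and 0.011 on HFD, with 6 higher. Probesets with a mean under the median of all probesets were counted as dim. Without them 6 targets were left, with medians of 0.024 on CD (3 higher) and 0.103 on HFD (4 higher). By the CD sets on HFD arrays 11 of 12 were higher, with a median of 0.038 and 1 under the unadjusted threshold, beside 1.35% of all genes. In that grouping 7 of 12 were higher within batch 2 (0.033), and 7 of 12 (0.013) with all arrays split at the median of Ahr. Cyp1a1 ran from 6.72 through 7.09 to 7.30 in high-Ahr and from 6.78 through 7.06 to 7.37 in low-Ahr CD arrays. The sets covered the same range, with a difference of 0.011 (95% interval −0.119 to 0.142). Tiparp, an ADP-ribosyltransferase that represses AHR, differed by −0.049 (95% interval −0.171 to 0.072).

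Of the 12 targets, 2 were lower under the unadjusted threshold on CD, beside 2.86% of all genes, and 1 was higher, beside 2.6%. Cyp1b1, a cytochrome P450, ran from 7.25 through 7.70 to 7.90 in high-Ahr and from 7.52 through 7.82 to 8.10 in low-Ahr arrays, a difference of −0.179 (SE 0.069). Aldh3a1, an aldehyde dehydrogenase, differed by −0.173 (SE 0.053) on CD and by 0.027 on HFD, and had the opposite sign by the CD sets on HFD arrays, at 0.160 (SE 0.064, unadjusted p = 0.0195). Cdkn1b, the cell cycle inhibitor p27, differed by 0.128 (SE 0.059). On HFD 1 of the 12 targets was under the threshold, beside 4.76% of all genes, namely Xdh, xanthine dehydrogenase, which ran from 9.73 through 10.08 to 10.63 and from 9.37 through 9.77 to 10.04, a difference of 0.374 (SE 0.090).

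The 11 genes of the kynurenine pathway, which makes AHR ligands, had a median of −0.011 on CD, with 1 higher under the threshold, beside 2.6% of all genes. On HFD by own Ahr 4 of 11 were higher (median −0.030), with 1 lower under the threshold, beside 6.97% of all genes, and by the CD sets 0 of 11 were higher (median −0.034), none under the threshold. Of 21 clock and PAS genes, 11 were higher and 10 lower on CD (median 0.000), with 1 higher and 2 lower under the threshold, beside 2.6% and 2.86% of all genes. Per3, Dbp and Bhlhe40 had an unadjusted p under 0.05 for the difference between diets, beside 4.58% of all genes. The 12 neuromuscular junction genes had a median of 0.027 on CD, with 2 higher under the threshold, beside 2.6% of all genes, and 14 listed genes of chromosome 12 had a median of −0.024 with none. The last value was the same without Acp1 and Hdac9, whose brightest probesets may measure other genes.

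Promoters of the genes higher with Ahr held GCGTG more often than those of the lower genes on both diets. It stood in 43.9% of 16005 named genes with a promoter, in 51.4% of the 455 genes higher on CD at an unadjusted p under 0.05, and in 37.5% of the 427 lower. Genes with the core also had a higher level, with a median of 8.77 against 7.74. Among the brighter genes alone the shares were 56.1% of 8374 genes, 58.1% of 344 higher and 52.3% of 149 lower. TNGCGTG stood in 9.01% of the higher and 7.03% of the lower CD genes, beside 7.24% of all. On HFD GCGTG stood in 55.1% of 806 higher and 39.6% of 1077 lower genes, and among the brighter ones in 58.1% and 52.8%. TNGCGTG stood in 9.18% of the higher and 7.8% of the lower HFD genes, the same order, and among the brighter ones in 9.15% and 11.9%, the opposite order. These shares describe letters and were not tested.

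Genes of mitochondrial fatty acid oxidation were higher in the high-Ahr CD arrays. Of 23 on the array, 21 had a higher mean, with a median difference of 0.162 units, and 13 had an unadjusted p under 0.05, beside 2.6% of all genes. The 13 cover several steps. They include uptake and binding (Cd36 at 0.215, Fabp3 at 0.298), carnitine transfer (Cpt1b at 0.113, Cpt2 at 0.162), the spiral itself (Acadm at 0.205, Hadha at 0.193, Hadhb at 0.235, Echs1 at 0.186) and electron transfer (Etfdh at 0.247). Etfdh, which passes electrons to ubiquinone, ran from 11.55 through 11.74 to 12.12 in high-Ahr and from 11.24 through 11.54 to 11.93 in low-Ahr arrays (SE 0.069, unadjusted p = 0.0013). Acadm, the medium-chain dehydrogenase, ran from 12.81 through 12.98 to 13.26 and from 12.47 through 12.77 to 13.11. In both genes the sets overlapped.

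Ucp3 and Pdk4, which fasting is known to induce in muscle, were the 2 genes of the list not higher on CD, at −0.146 (SE 0.152) and −0.033 (SE 0.097).

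Ranked on their own Ahr, HFD arrays gave 20 of 23 genes higher with a median of 0.060. Of these genes 2 were higher and 1 was lower under the threshold, shares near the 4.76% and 6.97% of all genes. Grouped by the CD sets of their strains, HFD arrays gave 23 of 23 higher with a median of 0.115 and 4 under the threshold, Cpt1b, Cpt2, Etfdh and Acot2, beside 1.35% of all genes. Etfdh then ran from 11.52 through 11.83 to 12.24 and from 11.42 through 11.65 to 12.15. This order differed from that of the endothelial genes, whose median was smaller by the CD sets than by own HFD Ahr. The difference between the lists was not tested. Slow fibre genes, which mark oxidative fibres, had a median of 0.104 in the same grouping, with none under the threshold, and their part in the fatty acid oxidation result was not tested.

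The fatty acid oxidation median on CD was 0.177 within batch 1 and 0.145 within batch 2. By the CD sets on HFD arrays it was 0.163 and 0.062, and 0.038 with 16 of 23 higher when all arrays were split at the median of Ahr. On HFD by own Ahr the median was 0.022 without BXD97, and with the olfactory receptor covariate it was −0.019 with 11 of 23 genes higher, whereas by the CD sets that covariate gave 0.138.

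**Figure D4:**
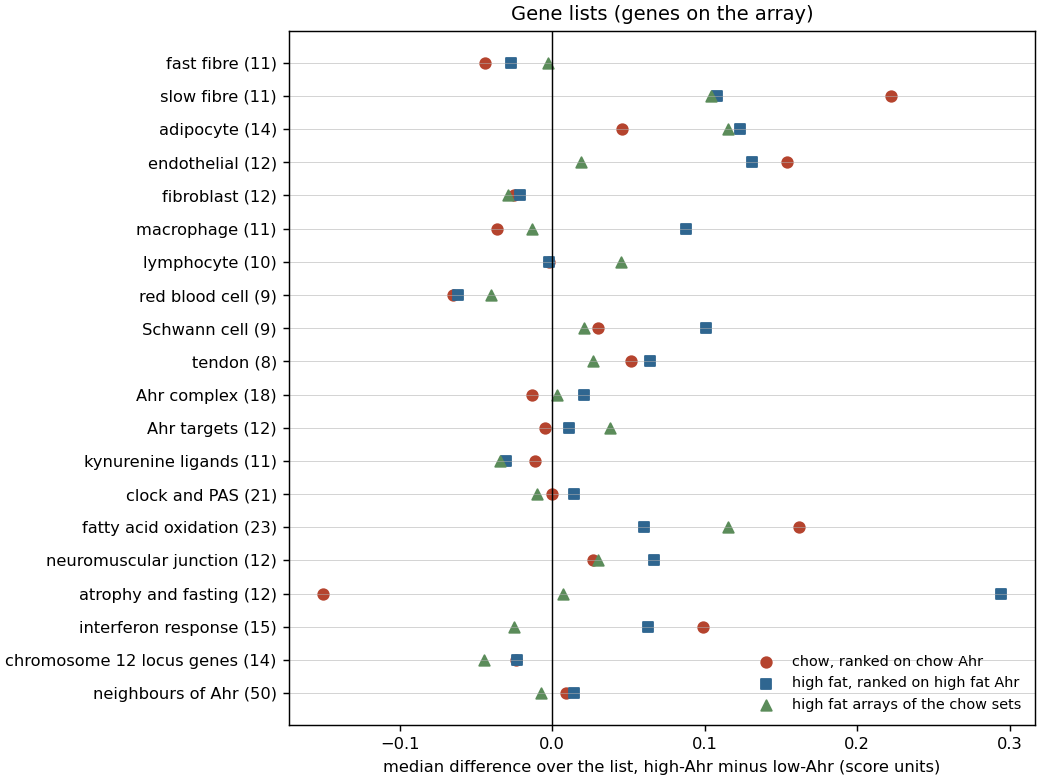
Median difference in score units, high-Ahr minus low-Ahr (horizontal axis), for each gene list with its number of genes on the array (vertical axis). Circles are CD arrays, squares HFD arrays ranked on their own Ahr and triangles HFD arrays of the CD sets; atrophy and fasting genes lie at −0.15 on CD and 0.294 on HFD.

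Atrophy and fasting genes had opposite signs on the 2 diets. On CD all 12 were lower in high-Ahr arrays (median −0.150). Of these 1 was under the unadjusted threshold, beside 2.86% of all genes. On HFD all 12 were higher (median 0.294), with 5 under the threshold, beside 4.76% of all genes. Trim63, the muscle ubiquitin ligase MuRF1, ran from 11.61 through 12.26 to 13.09 in high-Ahr and from 11.76 through 12.60 to 13.52 in low-Ahr CD arrays, a difference of −0.286 (SE 0.179). On HFD it ran from 11.59 through 12.28 to 13.28 and from 11.46 through 11.91 to 13.01, a difference of 0.410 (SE 0.195). The sets overlapped widely on both diets.

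Foxo1, the transcription factor that induces such ligases, differed by −0.099 (SE 0.100) on CD and 0.321 (SE 0.098) on HFD. Cdkn1a, the cell cycle inhibitor p21, differed by −0.193 (SE 0.209) and 0.590 (SE 0.198). Mt2, a metallothionein, differed by −0.321 (SE 0.210) and 0.580 (SE 0.216). In the test of the difference between diets, 0 of 22334 named genes (0%) passed in limma and 4.58% had an unadjusted p under 0.05. Of the 12 atrophy and fasting genes, 7 did, each negative on CD and positive on HFD: Foxo1, Mt2, Fbxo32, Gadd45a, Cdkn1a, Trim63 and Fkbp5. The smallest limma adjusted p among them was 0.996. With the strain as a random block, since 17 strains had an array on each diet in this fit, 8 of the 12 were under the unadjusted threshold, beside 4.69% of all genes.

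Grouped by the CD sets, HFD arrays gave a median of 0.007 with none of the 12 under the threshold. In that grouping it was −0.086 with 2 of 12 higher when all arrays were split at the median of Ahr. With fewer arrays per set it was 0.075 with 10 of 12 higher. The same split of the CD arrays gave −0.085 on CD with 0 of 12 higher. On CD the median was −0.113 within batch 1, where 3 of 12 genes were higher, and −0.198 within batch 2, and on HFD it was 0.294 and 0.295. With the olfactory receptor covariate it was 0.141 on HFD, and leaving out single arrays gave 0.208 to 0.339.

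Of 15 interferon response genes, 12 were higher on CD with a median of 0.099, and 4 were under the unadjusted threshold, beside 2.6% of all genes: Ifit1 at 0.266 (SE 0.090), Gbp2 at 0.290 (SE 0.125), Rsad2 at 0.294 (SE 0.142) and Mx2 at 0.195 (SE 0.067). On HFD 10 of 15 were higher with a median of 0.063, and 3 were higher under the threshold, beside 4.76% of all genes, Rsad2 at 0.527 (SE 0.119), Gbp2 at 0.348 (SE 0.096) and Irf9 at 0.141 (SE 0.062). Mx2 went the other way on HFD, at −0.244 (SE 0.099), and its difference between diets had an unadjusted p of 0.000452. Rsad2, the antiviral protein viperin, ran from 7.76 through 8.48 to 8.98 in high-Ahr and from 7.49 through 7.96 to 8.34 in low-Ahr HFD arrays. Per array, the list mean ran from 7.706 through 7.947 to 8.405 in high-Ahr and from 7.730 through 7.816 to 8.080 in low-Ahr CD arrays. BXD80 was the highest, followed in the high-Ahr set by BXD49 at 8.116. By the CD sets the list had a median of −0.025 on HFD. The median was 0.042 on CD with fewer arrays per set, and on HFD it was −0.035 within batch 1, with 5 of 15 higher, and 0.121 within batch 2.

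Ahr lies on chromosome 12, and inbred strains of a cross share long stretches of parental sequence, so its neighbours were described as well. Of the 25 nearest named genes on each side, taken by their order in RefSeq, 27 of 50 were higher on CD with a median of 0.009. Under the unadjusted threshold 6 were higher and 1 was lower, beside 2.6% and 2.86% of all genes. On HFD by own Ahr 4 were higher and 5 lower, beside 4.76% and 6.97% of all genes. By the CD sets 1 was higher and 5 were lower, beside 1.35% and 1.82%, with 23 of 50 higher in mean. Without Hdac9, whose brightest probeset may measure another gene, the counts under the threshold were the same. Among the higher ones, 4 lay within 7 places of each other on one side of Ahr: Scin at place 15, Zfp277 at 18, Dock4 at 19 and Immp2l at 21. Cog5 and Efcab10 lay on the other side, and the lower gene, Agr3, was the direct neighbour on the same side as Scin.

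Immp2l, a mitochondrial inner membrane peptidase, ran from 8.88 through 9.02 to 9.24 in high-Ahr and from 8.46 through 8.88 to 9.05 in low-Ahr CD arrays, a difference of 0.216 (SE 0.061, unadjusted p = 0.00142). Scin, an actin-severing gelsolin relative, differed by 0.298 (SE 0.108), and Zfp277, a zinc finger gene, by 0.235 (SE 0.086). On HFD arrays of the same strains Scin, Zfp277, Immp2l and Dock4 differed by 0.210 (SE 0.113), 0.244 (SE 0.110), 0.160 (SE 0.082) and 0.023 (SE 0.068). In the same stretch Gm889, at place 16, ran from 10.37 through 10.87 to 11.76 and from 10.68 through 11.24 to 12.16 on those arrays, a difference of −0.556 (SE 0.174, unadjusted p = 0.00377), and differed by −0.285 (SE 0.145) on CD. Gm889 was singled out after its values were seen. Snx13 and Agr2, at place 2 on either side of Ahr, differed by 0.041 (SE 0.061) and 0.019 (SE 0.054).

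**Figure D5:**
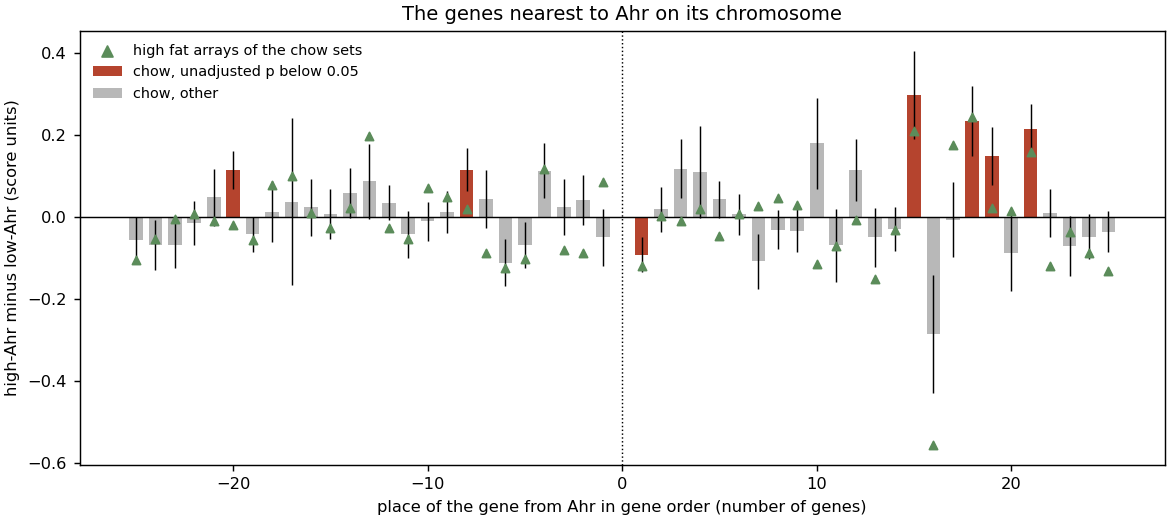
Difference between high-Ahr and low-Ahr CD arrays in score units (vertical axis, bars with SE) for the 50 named genes nearest to Ahr, by their place in gene order (horizontal axis, Ahr at 0). Red bars have an unadjusted p under 0.05, and green triangles give HFD arrays of the CD sets; Scin, Zfp277 and Immp2l lie at places 15, 18 and 21.

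The genes with the smallest p on HFD were not those of CD. Fam36a (Cox20), an assembly factor of cytochrome oxidase, ran from 10.85 through 11.01 to 11.13 in high-Ahr and from 11.11 through 11.23 to 11.34 in low-Ahr HFD arrays, so the sets barely overlapped. The difference was −0.232 (SE 0.039, limma adjusted p = 0.092), against −0.048 (SE 0.065) on CD. Tet2, a 5-methylcytosine dioxygenase, ran from 9.83 through 9.91 to 10.14 and from 9.52 through 9.70 to 9.81, and its sets did not overlap on HFD, at a difference of 0.258 (SE 0.046, limma adjusted p = 0.0961). On CD Tet2 differed by 0.077 (SE 0.068). Gbp6, an interferon-induced GTPase, differed by 0.642 (SE 0.116) on HFD and 0.389 (SE 0.199) on CD, and Fmo2, a flavin monooxygenase, by 0.710 (SE 0.152) and 0.319 (SE 0.141). The other higher genes of the 10 were Csf2rb2, 4930578C19Rik, Mms19, Gbp8, Rsad2, Sp1 and Zfp655. The other lower genes were 1700021F05Rik, 4933422H20Rik, Gm10248, 1810019J16Rik, Endog, Accn2, Dnaja1, Olfr105 and 1700008P20Rik.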

How the data were processed

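Quadriceps RNA of 79 strain and diet cohorts (42 CD, 37 HFD) was measured on 1 Affymetrix Mouse Gene 1.0 ST array each. The authors deposited 1 table of scores for 35556 probesets, scaled on each array to a mean of 8 and an SD of 2; the submitters' processing notes name Affymetrix Expression Console. Log base, summarization and batch correction are not given in the sources used here, so no fold changes are given. The tie of BXD60 and BXD98 was settled by sample order. Arrays have no read depth, and their number limits precision.

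A gene was read from its probeset with the highest mean, giving 22335 named genes; Ahr had 1 probeset and was left out of the tests. Sets were fitted with limma 3.58.1 in R 4.3.3, with batch as a term, and p-values were adjusted by Benjamini-Hochberg over all 35555 other probesets. Single values were compared by permutation in Python 3.11.15 with scipy 1.17.1. Genes named by rank were the 10 per direction with the largest difference among called genes or, with none called, the smallest p. Members and lists were chosen with earlier results of these data known. Promoters and gene order came from RefSeq tables (GRCm38.p6), in which 18783 symbols matched a current name and 2420 a synonym; 1132 did not match. The fits were tested on simulated data. With 1 array per strain and diet, p-values measure the spread between arrays. Differences between strains and noise of the pool or the array cannot be told apart in it.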

Additional observations from a re-analysis of the deposited data

How the results depend on the processing

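No paired analysis was possible because each strain had 1 array per diet and so stood on 1 side of each comparison of sets within a diet. In the test of the difference between diets, 17 strains had an array on each diet, and with the strain as a random block (a replicate block chosen after seeing the data, consensus correlation 0.157) 0 genes passed, and 1048 in place of 1024 had an unadjusted p under 0.05. An analysis with another Ahr probeset was not run, since the table holds 1. The count of 0 called genes on CD was the same under every alternative run, leaving out single arrays included. Unadjusted counts on CD moved from 1219 to 628 in batch 1 alone, 781 without dim probesets (fewer genes were tested) and 793 with all arrays split at the median of Ahr, and from 983 to 1550 when single arrays were left out. On HFD they moved from 2619 to 1177 in batch 1 alone, 1614 without dim probesets, 1441 with fewer arrays per set, 1685 with Ahr as a continuous term and 1097 with the olfactory receptor covariate, and from 1808 to 3471 when single arrays were left out. By the CD sets on HFD arrays, 709 became 410 without dim probesets, and 640 to 822 when single arrays were left out.

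Calls on HFD went from 0 to 4 without dim probesets (Fam36a, 1700021F05Rik, Tet2 and Gbp6). They went to 1 with limma-trend and to 1 with the methods' t-test after Benjamini-Hochberg. Ranking the HFD arrays again without BXD63, with the sets refilled to 12 arrays each, also gave 1. Calls were 0 to 2 when single arrays were left out with no refill, with 0 without BXD63, 1 without BXD97 and 2 without BXD85. By the CD sets on HFD arrays they were 0 to 1, with Cxcl11 called without BXD69. The difference of Ahr on HFD arrays of the CD sets, 0.128 (permutation p = 0.056), was 0.214 (exact p = 0.0177) in batch 2 alone, 0.171 (exact p = 0.036) with fewer arrays, 0.152 (permutation p = 0.0153) without the parental strains and 0.148 (permutation p = 0.0135) with the olfactory receptor covariate. It was 0.072 with all arrays split at the median of Ahr and 0.105 without BXD63. In the settings without the parental strains and without BXD63, the CD sets were ranked again and refilled. The cause of these changes was not tested, except where fewer genes or arrays entered. On the diet that ranked them, none of the genes named by rank changed sign under any alternative. These alternatives refit the same or overlapping arrays that chose the genes, so the constant sign is no separate check. Of the 20 genes ranked on CD, 15 had the same sign on HFD by own Ahr and 14 by the CD sets. Taking BXD98 in place of the tied BXD60, chosen after seeing the data, gave 1631 unadjusted genes on CD and 666 by the CD sets.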
